A study of Homo sapiens with 10 samples.

Results

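The NRF2 pathway was described here by 9 genes, TXNRD1, NQO1, HMOX1, GCLM, GCLC, SRXN1, SLC7A11, NFE2L2 and KEAP1, found by Ensembl identifier among the 63299 gene rows of each count file. The study asked what loss of the DEAD-box helicase DDX41 does to transcription in U2OS, a human osteosarcoma cell line that the sample labels spell U20S. Polyadenylated RNA was sequenced 48 h after knockdown with pool siRNAs, in 5 libraries of control knockdown and 5 of DDX41 knockdown, with all cells kept in the same DMEM-based medium. Library totals lay between 21807041 and 24896398 counts. The labels number the replicates without saying that they came from separate cultures, so p-values measure the spread between these libraries, which may be technical. The 9 members were chosen by a list drawn up with the counts of this same contrast in view, so their levels and differences, and on which side of the threshold they fall, are given as a description and not as a test.

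NRF2, the product of NFE2L2, is a transcription factor that KEAP1 holds in the cytoplasm and hands to a CUL3 ubiquitin ligase for destruction. Oxidants and electrophiles modify cysteines of KEAP1, NRF2 then accumulates, pairs with a small MAF protein in the nucleus and binds antioxidant response elements near genes for glutathione synthesis, thioredoxin recycling, quinone reduction, NADPH supply and iron handling. Much of this control acts on the protein, which RNA levels do not show.

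DDX41 itself checked the labels. Its level, in CPM (counts scaled to a common library size with TMM factors), was 49.1, 49.4, 47.3, 47.2 and 50.5 in control knockdown replicates 1 to 5 and 11.5, 13.7, 12.4, 11.2 and 12.3 in DDX41 knockdown replicates 1 to 5. Every DDX41 knockdown library was below every control knockdown library. The log2 fold change was -1.99 ± 0.049 (SE; edgeR quasi-likelihood test, adjusted p = 4.47e-24), and the exact two-sided permutation test on log2 CPM gave p = 0.00794, the smallest that 5 against 5 libraries allow.

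The search for antioxidant response element letters in the promoters shows the DNA near the starts of the members, whether their RNA was higher or not. The letters TGACNNNGC were looked for on both strands in windows of 250 bases before to 50 bases after each start from RefSeq on hg38, and again from 1000 bases before the same starts in the hg38 sequence. They occurred in 13.3% of all 35116 RefSeq windows and in 33.7% of the longer ones. The stricter form TGACTCAGC, which lies within the first pattern, occurred in 0.561% and 1.53%. Of the 9 members 7 had an entry in the set of windows used here, and those without are SLC7A11 and HMOX1. KEAP1, GCLM and TXNRD1 held the first pattern in the RefSeq window, GCLC and NQO1 only in the longer window, and NFE2L2 and SRXN1 in neither. Members are listed here by gene, and NFE2L2, KEAP1 and TXNRD1 have 2 windows each, whereas the percentages count windows. A match describes letters in a window and no binding. All matches of the members are printed with flanking bases, read along the gene's strand, with the match in capitals (a match on the other strand is shown as its reverse complement). Coordinates below are those of the printed stretches, flanking bases included, and positions are those of the first base of the match. KEAP1 lies on the minus strand, with stretches at chr19:10502802-10502840 (position -54) and chr19:10502779-10502817 (position -31). GCLC lies on the minus strand too, with its stretch at chr6:53545948-53545986 (position -870). Neither gene was called. The match of KEAP1 at -31 has the same 9 letters as that of GCLM. GCLM lies on the minus strand, with its stretch at chr1:93909441-93909479 and the first base of the match at position -34 from the start. TXNRD1 lies on the plus strand, with stretches at chr12:104215665-104215703 (position -99) and chr12:104215756-104215794 (position -8) for its first start. For its second start the stretch is chr12:104286915-104286953 (position -102). NQO1 lies on the minus strand, with its stretch at chr16:69726992-69727030 (position -455), and its match is the stricter form.
KEAP1 position -54: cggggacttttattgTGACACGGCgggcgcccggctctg
KEAP1 position -31: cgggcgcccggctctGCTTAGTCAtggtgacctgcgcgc
GCLC: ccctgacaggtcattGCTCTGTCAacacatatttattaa
GCLM: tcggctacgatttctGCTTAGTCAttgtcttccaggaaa
TXNRD1 position -99: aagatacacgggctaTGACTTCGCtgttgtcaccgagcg
TXNRD1 position -8: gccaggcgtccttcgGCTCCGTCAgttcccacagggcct
TXNRD1 position -102: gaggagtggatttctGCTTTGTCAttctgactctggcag
NQO1: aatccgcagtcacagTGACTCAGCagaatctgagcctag

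Among the 16143 genes that passed the filter on low counts, 10068 (62.4%) differed between the groups at an adjusted p under 0.01, 4890 (30.3%) of them higher and 5178 (32.1%) lower in DDX41 knockdown. The filter kept 8 of the 9 members, and SRXN1 failed it. By the same threshold 5 members were higher (NFE2L2, GCLM, SLC7A11, TXNRD1 and NQO1), HMOX1 was lower but so close to the threshold that 12 of 17 alternative settings left it uncalled, and KEAP1 and GCLC were not called, which repeats the contrast that chose them and carries no weight of its own.

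**Figure D1:**
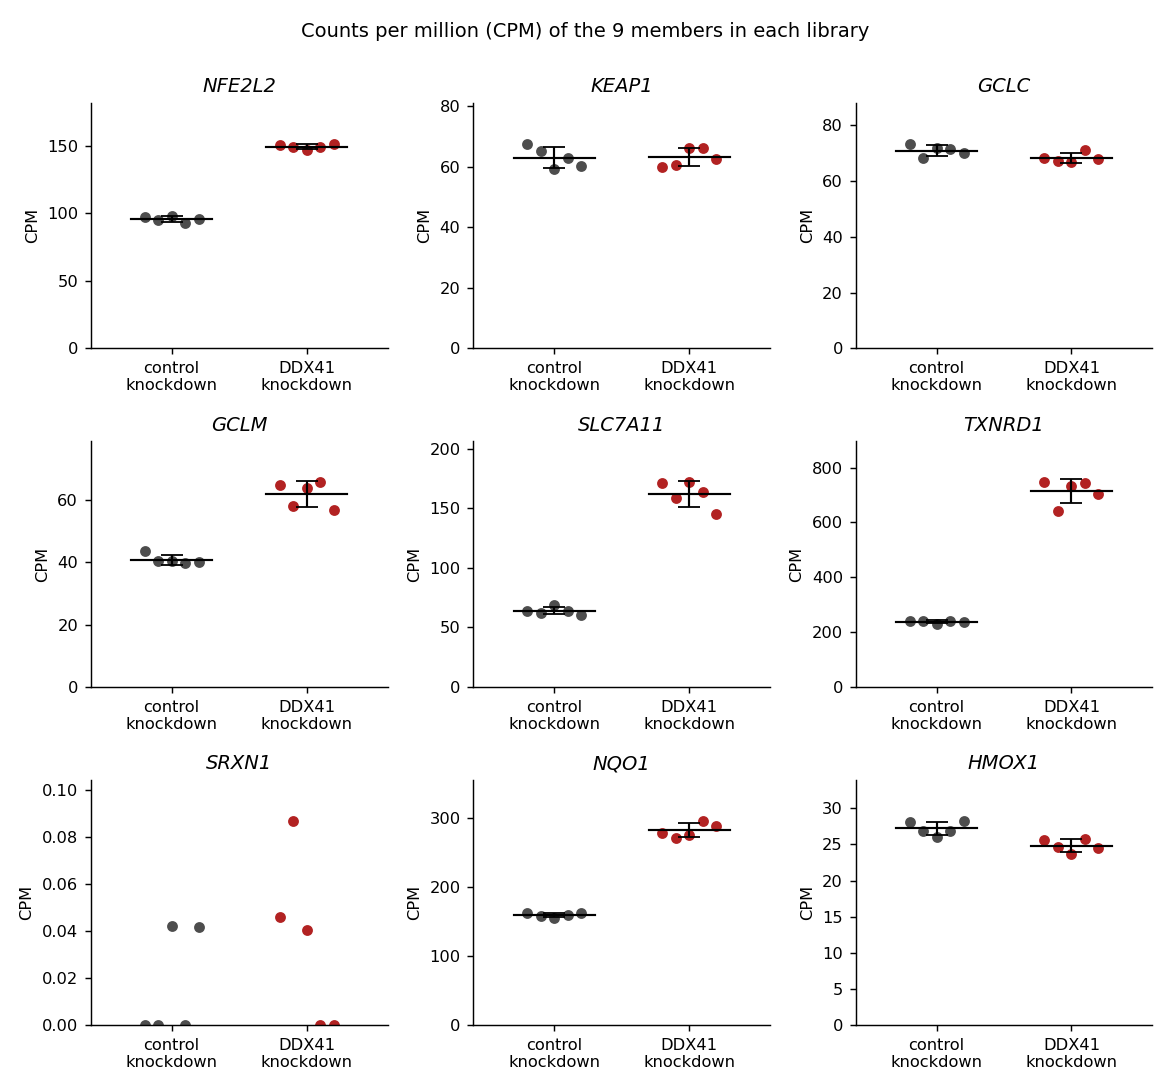
Level in CPM (vertical axis from 0, own scale per gene) of the 9 members in each of the 5 control knockdown and 5 DDX41 knockdown libraries, replicates 1 to 5 from left to right in each group, with the mean and SD as bars except for SRXN1. TXNRD1 lies between 639.7 and 746 in DDX41 knockdown against 230.5 to 242 in control knockdown, while the groups of KEAP1 and GCLC overlap and SRXN1 is near 0 in all 10 libraries.

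The transcription factor was higher in DDX41 knockdown, and its inhibitor had overlapping groups. NFE2L2 (ENSG00000116044.15, chr2:177218667-177392756, minus strand, hg38) had 97.0, 95.3, 97.9, 92.5 and 95.5 CPM in control knockdown and 151, 149, 147, 149 and 152 CPM in DDX41 knockdown replicates 1 to 5. The groups did not overlap, and within each group the libraries lay close together, with a coefficient of variation of 1.15% in DDX41 knockdown, lower than in most genes of a level within 1.5-fold (median 3.22% over 1994 genes). The mean was 1.56-fold higher, 95.7 ± 2.06 against 149.5 ± 1.72 CPM (SD, n = 5 in each group), and the log2 fold change was 0.64 ± 0.028 (SE).

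KEAP1 (ENSG00000079999.13, chr19:10486125-10503558, minus strand), the sensor that binds NRF2, had 67.5, 65.2, 59.1, 62.7 and 60.1 CPM in control knockdown and 59.8, 60.7, 66.1, 66.2 and 62.5 CPM in DDX41 knockdown. The libraries of both groups were interleaved. The means were 62.9 ± 3.50 and 63.1 ± 2.99 CPM (SD, n = 5), and the log2 fold change was 0.00 ± 0.039 (SE).

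Genes that act with NRF2 or against it and are not members were tested. Their list, however, was also drawn up with earlier results of the data known. The list of NRF2 control genes held 19 tested genes besides NFE2L2 and KEAP1. Of these 9 rose (47.4%), 5 fell (26.3%) and 5 were not called, beside 30.3% and 32.1% over all genes tested. The median log2 fold change was 0.06 beside -0.0014 over all genes tested. Among the small MAF partners of NRF2, MAFF rose from 13.7 ± 0.392 to 30.7 ± 1.05 CPM (SD, n = 5), a log2 fold change of 1.17 ± 0.047 (SE; edgeR adjusted p = 4.83e-19). MAFG rose by a log2 fold change of 0.36 ± 0.030 (edgeR adjusted p = 8.84e-12). MAFK was not called, with 73.7 ± 6.38 and 75.5 ± 6.28 CPM. Whether the MAF genes differed from each other in this respect was not tested. MAFF and MAFK share exon bases with PLA2G6 and TMEM184A on the opposite strand. MAFG shares 2.07% of its exon bases with SIRT7 on the same strand. How the counting treated strand and shared bases is not given in the sources used here, so these levels are uncertain to that extent.

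BACH1, a repressor that competes with NRF2 for the same DNA elements, rose from 90.4 ± 3.13 to 104 ± 4.95 CPM (SD, n = 5), a log2 fold change of 0.20 (edgeR adjusted p = 8.77e-06). SQSTM1, the autophagy receptor that binds KEAP1, rose by 0.29 on the log2 scale. It was the most abundant gene of the list per kb, with 103 and 126 CPM per kb. SQSTM1 shares 55.7% of its exon bases with MRNIP on the opposite strand. The related factor NFE2L1 rose by 0.32. Of the ligase that receives NRF2, RBX1 fell by 0.20 on the log2 scale, and CUL3 rose by 0.09 with an edgeR adjusted p = 0.00976, a call that was lost in 9 of 17 alternative settings. The largest falls of the list at a mean of 5 CPM or more were in the deacetylase HDAC3, from 80.2 ± 2.50 to 47.8 ± 1.90 CPM (edgeR adjusted p = 1.60e-17), and in the acetyltransferase CREBBP, from 151 ± 7.59 to 125 ± 3.85 CPM (SD, n = 5).

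Glutathione synthesis starts with glutamate-cysteine ligase, whose catalytic subunit is GCLC and whose modifier subunit is GCLM. GCLC (ENSG00000001084.10, chr6:53497341-53616970, minus strand) had 73.4, 68.2, 71.9, 71.6 and 70.0 CPM in control knockdown and 68.2, 67.3, 66.8, 71.1 and 68.0 CPM in DDX41 knockdown. The groups overlapped, and the means were 71.0 ± 2.00 and 68.3 ± 1.70 CPM (SD, n = 5; log2 fold change -0.06 ± 0.032 SE). GCLM (ENSG00000023909.9, chr1:93885199-93909456, minus strand) had 43.6, 40.2, 40.2, 39.7 and 40.2 CPM in control knockdown and 64.7, 57.8, 63.8, 65.6 and 56.6 CPM in DDX41 knockdown. The groups were apart, replicates 2 and 5 were the lowest of the DDX41 knockdown libraries, and replicate 1 stood above the other control knockdown libraries. The mean of GCLM was 1.51-fold higher, 40.8 ± 1.58 against 61.7 ± 4.17 CPM (SD, n = 5), a log2 fold change of 0.60 ± 0.042 (SE).

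Per kb of transcript, GCLM stood at 0.445 ± 0.0136 of the level of GCLC in control knockdown and at 0.701 ± 0.0428 in DDX41 knockdown (SD of the ratio, n = 5). The ratio was lower in all 5 control knockdown libraries, between 0.429 and 0.460, than in all 5 DDX41 knockdown libraries, between 0.645 and 0.741. By the canonical GENCODE transcript lengths used here, GCLM was the scarcer subunit RNA in every library, and other transcripts in use would shift the ratio.

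SLC7A11 (ENSG00000151012.13, chr4:138164097-138242349, minus strand) encodes the cystine carrier of the plasma membrane, which brings in the cysteine used for glutathione. Its level was 63.8, 62.2, 68.7, 64.1 and 60.4 CPM in control knockdown and 171, 158, 172, 163 and 145 CPM in DDX41 knockdown. The groups were far apart, and replicate 5 was the lowest library in both. The mean was 2.53-fold higher, 63.8 ± 3.07 against 162 ± 11.0 CPM (SD, n = 5), a log2 fold change of 1.34 ± 0.043 (SE). SLC3A2, the heavy chain that carries SLC7A11 to the membrane and serves other carriers too, was not a member and rose from 209 ± 9.29 to 265 ± 4.69 CPM, a log2 fold change of 0.34 ± 0.029 (edgeR adjusted p = 1.32e-11). Per kb, SLC7A11 stood at 0.0598 ± 0.00489 of SLC3A2 in control knockdown and at 0.119 ± 0.00878 in DDX41 knockdown (SD, n = 5).

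The rest of glutathione metabolism moved both ways. Of 34 tested genes of the list other than members, 17 rose, 9 fell and 8 were not called. The median log2 fold change was 0.14 beside -0.0014 over all genes, of which 30.3% rose and 32.1% fell. The next enzyme of synthesis, GSS, fell from 84.8 ± 2.35 to 68.4 ± 2.52 CPM (edgeR adjusted p = 1.56e-09), whereas GSR, which regenerates reduced glutathione with NADPH, rose from 75.7 ± 1.96 to 100.5 ± 4.11 CPM (edgeR adjusted p = 3.50e-12). Among genes with a mean of at least 5 CPM over the 10 libraries, the largest rises were in CHAC1, an enzyme that degrades glutathione, from 4.24 ± 0.719 to 7.13 ± 0.548 CPM, and in the peroxidase GPX8, from 134 ± 3.18 to 217 ± 5.21 CPM. The largest falls were in GSTZ1, of tyrosine breakdown, by 1.08 on the log2 scale, and in GGT1, which splits glutathione outside the cell, by 0.81. GSTP1 was the most abundant gene of the list per kb, at 585 and 651 CPM per kb, and rose by 0.15 on the log2 scale with groups that overlapped.

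TXNRD1, the cytosolic thioredoxin reductase and a selenoprotein, had the largest difference among the members. TXNRD1 (ENSG00000198431.15, chr12:104215779-104350307, plus strand) had 242, 241, 230.5, 239.6 and 237 CPM in control knockdown and 746, 639.7, 734, 745 and 704 CPM in DDX41 knockdown. No library of either group came near the other group, and DDX41 knockdown replicate 2 was the lowest of its group. The mean was 3.00-fold higher, 238 ± 4.53 against 714 ± 44.7 CPM (SD, n = 5), a log2 fold change of 1.58 ± 0.034 (SE). Of the 16143 tested genes 112 had a larger log2 fold change.

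Its substrate thioredoxin, TXN, rose from 127 ± 2.22 to 171 ± 10.4 CPM (SD, n = 5), a log2 fold change of 0.43 (edgeR adjusted p = 4.60e-12). As with TXNRD1, replicate 2 was the lowest DDX41 knockdown library for TXN, at 153 CPM. The ratio of TXNRD1 to TXN per kb varied little between replicates, 0.358 ± 0.00354 in control knockdown and 0.799 ± 0.00436 in DDX41 knockdown (SD, n = 5). The mitochondrial reductase TXNRD2 rose by 0.63 on the log2 scale, from 150.4 ± 6.48 to 233 ± 6.85 CPM (edgeR adjusted p = 3.41e-17), and the scarcer TXNRD3 rose by 1.05, from 2.33 ± 0.130 to 4.83 ± 0.407 CPM (SD, n = 5).

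Of 21 tested genes for thioredoxins and peroxiredoxins besides TXNRD1, 10 rose (47.6%), 6 fell (28.6%) and 5 were not called. Over all genes tested the shares were 30.3% and 32.1%. The list's median log2 fold change was 0.11. PRDX1, a peroxidase that thioredoxin reduces, was the most abundant per kb and rose from 769.7 ± 25.6 to 1105 ± 45.4 CPM (edgeR adjusted p = 8.61e-16). PRDX1 shares 38.5% of its exon bases with MMACHC on the opposite strand. The largest fall was that of TXNIP, which binds and inhibits thioredoxin, from 29.8 ± 3.43 to 9.82 ± 1.09 CPM (SD, n = 5; log2 fold change -1.60 ± 0.083 SE; edgeR adjusted p = 4.56e-12). NXN, a thioredoxin-like oxidoreductase, fell by 0.74 on the log2 scale.

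SRXN1 (ENSG00000271303.1, chr20:646615-653200, minus strand), which repairs overoxidised peroxiredoxins, had 6 reads in all 10 libraries together, 2 in control knockdown and 4 in DDX41 knockdown, and 0 in 5 libraries. A floor of 3 counts corresponds to between 0.120 and 0.138 CPM by library total, for counting error only. Of its exon bases 90.7% are shared on the same strand with the gene ENSG00000270299, which had 0 counts. Whether reads over both genes were left uncounted was not tested, so SRXN1 is listed near 0 and no difference could be measured.

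NQO1 (ENSG00000181019.12, chr16:69706996-69726668, minus strand), which reduces quinones with NADPH or NADH, had 163, 158, 155, 160.1 and 163 CPM in control knockdown and 279, 272, 275, 296 and 289 CPM in DDX41 knockdown. All 5 DDX41 knockdown libraries were above all control knockdown libraries, with replicates 4 and 5 the highest. The mean was 1.76-fold higher, 160.1 ± 3.32 against 282 ± 10.1 CPM (SD, n = 5), a log2 fold change of 0.82 ± 0.029 (SE). NQO1 shares 22.8% of its exon bases with a gene on the opposite strand that had 7 reads in total.

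Of the other 25 tested genes for quinone and aldehyde detoxification, 14 rose (56.0%), 6 fell (24.0%) and 5 were not called. Over all genes tested the shares were 30.3% and 32.1%. The list's median log2 fold change was 0.30. AKR1C3, an aldo-keto reductase, rose from 10.8 ± 0.604 to 33.8 ± 3.64 CPM (SD, n = 5; log2 fold change 1.64 ± 0.068 SE; edgeR adjusted p = 1.09e-16). Its close relatives AKR1C1 and AKR1C2, named after their values were seen, were lower in level, with means of 0.460 and 7.65 CPM for AKR1C1 and 0.108 and 1.39 CPM for AKR1C2 in control and DDX41 knockdown. These genes are near copies, so that their reads are uncertain between them. NQO2, the relative of NQO1, rose from 9.15 ± 0.496 to 14.1 ± 1.07 CPM. AKR1A1 fell from 112 ± 4.19 to 66.4 ± 3.53 CPM (edgeR adjusted p = 2.15e-17), UGDH fell by 0.35 on the log2 scale, and AKR1B1, the most abundant per kb, was not called.

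**Figure D2:**
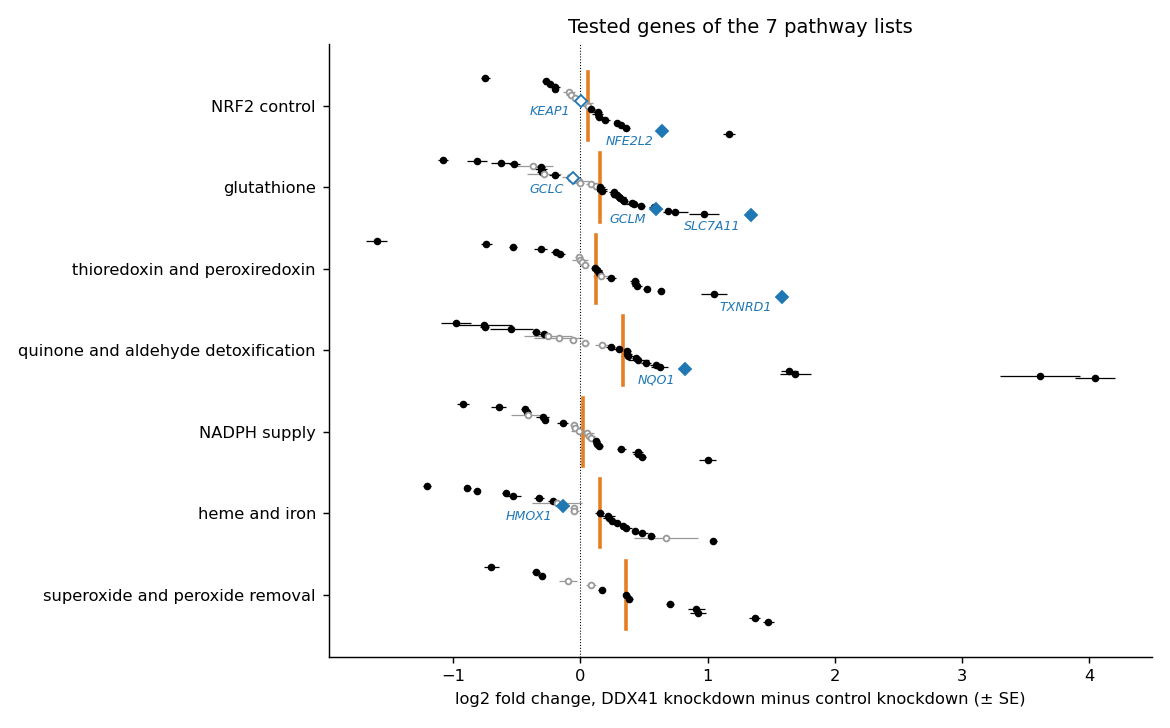
Log2 fold change with its SE (horizontal axis, DDX41 knockdown minus control knockdown) of each tested gene in the 7 pathway lists, sorted within a list. Filled black points were called at an adjusted p under 0.01, open points were not, blue diamonds are members (named, filled by the same threshold and not tested here), and orange bars are list medians with members, from 0.02 for NADPH supply to 0.36 for superoxide and peroxide removal.

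HMOX1 (ENSG00000100292.16, chr22:35380361-35394214, plus strand), which breaks down heme and releases iron, was a little lower in DDX41 knockdown. It had 28.0, 26.9, 26.0, 26.8 and 28.2 CPM in control knockdown and 25.6, 24.7, 23.6, 25.7 and 24.4 CPM in DDX41 knockdown. The lowest control knockdown library, replicate 3, was just above the highest DDX41 knockdown library, replicate 4. The means were 27.2 ± 0.929 and 24.8 ± 0.867 CPM (SD, n = 5), a log2 fold change of -0.13 ± 0.044 (SE).

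The same list holds genes for making, breaking down and moving heme and for iron storage and uptake. Among its 22 tested genes besides HMOX1, 11 rose, 7 fell (31.8%) and 4 were not called, with a median log2 fold change of 0.19. Of all genes tested, 30.3% rose and 32.1% fell, so the share that fell in this list was near that of all genes. FTL, the ferritin light chain, was the most abundant per kb and rose from 1576 ± 48.5 to 3252 ± 157 CPM (SD, n = 5; log2 fold change 1.05 ± 0.030 SE; edgeR adjusted p = 8.35e-22). TFRC, the transferrin receptor, rose from 564 ± 15.7 to 828 ± 24.5 CPM. STEAP3, an iron reductase of endosomes, fell from 268 ± 8.60 to 116 ± 5.03 CPM (edgeR adjusted p = 1.25e-23), and PCBP2, an RNA-binding protein that also carries iron, fell from 252 ± 6.84 to 136 ± 1.90 CPM. PCBP2 overlaps MAP3K12 on the opposite strand, and ferritin has many processed copies in the genome, so reads of both may be uncertain. HMOX2, named after its values were seen, had 3 reads in all 10 libraries together and at most 1 in any library. That is under the floor of 3 counts, between 0.120 and 0.138 CPM by library total. Why so few reads were counted was not tested, and no difference could be measured.

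NADPH feeds both glutathione and thioredoxin reduction. The list named NADPH supply also holds enzymes that do not make NADPH themselves, such as FDXR, RPIA, RPE, TKT and TALDO1. Its median log2 fold change was 0.02. All its 22 genes were tested, of which 8 rose (36.4%), 7 fell (31.8%) and 7 were not called. These shares are near the 30.3% and 32.1% over all genes tested. The mitochondrial folate enzyme ALDH1L2 rose from 9.15 ± 1.04 to 18.3 ± 0.977 CPM while its cytosolic relative ALDH1L1 fell from 17.6 ± 0.894 to 11.3 ± 0.884 CPM. IDH2 fell from 34.8 ± 1.40 to 18.3 ± 1.40 CPM (SD, n = 5; edgeR adjusted p = 4.16e-16). ALDH1L2 shares exon bases with NOPCHAP1 on the opposite strand.

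Of 13 tested genes for superoxide and peroxide removal, 8 rose (61.5%), 3 fell (23.1%) and 2 were not called. Over all genes tested the shares were 30.3% and 32.1%. The list's median log2 fold change was 0.36. TRIM16L rose from 37.1 ± 1.80 to 95.9 ± 6.30 CPM (SD, n = 5) and has a near copy in TRIM16, so that reads may be split between them. SOD1 was the most abundant per kb and rose from 240.1 ± 6.20 to 313 ± 9.91 CPM. CCS, which loads SOD1 with copper, fell from 15.2 ± 0.976 to 9.38 ± 0.491 CPM, and CAT, the catalase, fell from 72.5 ± 2.41 to 57.0 ± 1.76 CPM. SOD2 was not matched by name and is not analysed here.

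Over the 7 lists, 156 genes other than members were tested, of which 77 rose (49.4%), 43 fell (27.6%) and 36 were not called, with a median log2 fold change of 0.12 beside -0.0014 over all genes. The corresponding shares over all genes were 30.3% and 32.1%. These counts describe lists that were drawn up with earlier results of the data known.

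**Figure D3:**
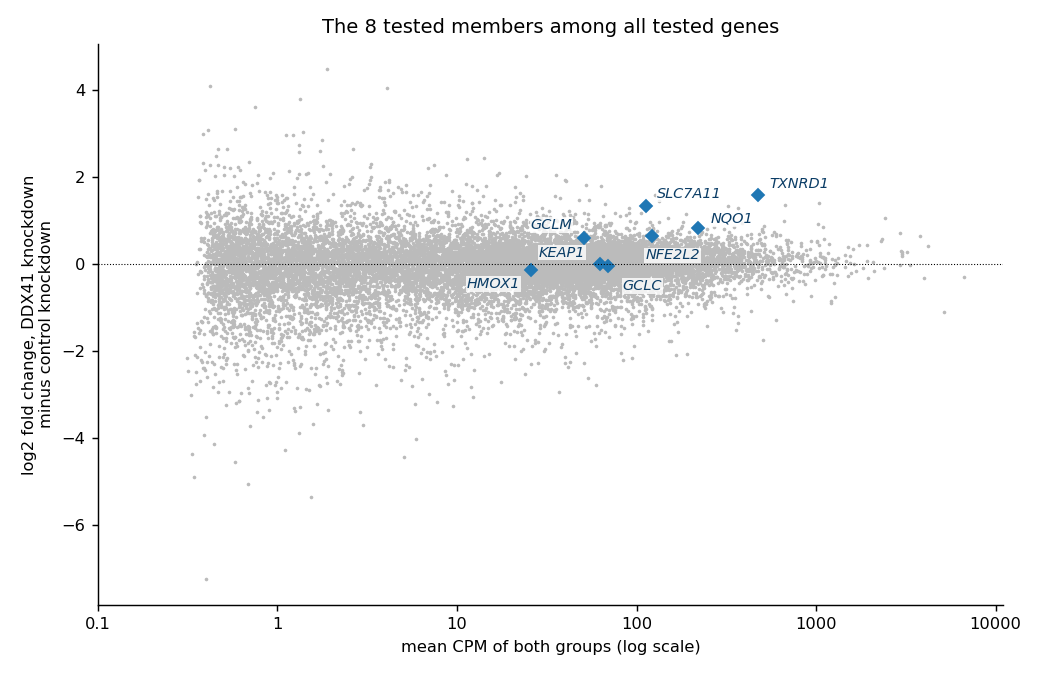
Log2 fold change (DDX41 knockdown minus control knockdown) against the mean CPM of both groups (log scale) for all 16143 tested genes in grey and the 8 tested members as blue diamonds. TXNRD1 at 1.58 and SLC7A11 at 1.34 lie near the upper edge at their levels, and KEAP1, GCLC and HMOX1 lie near 0.

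Per kb of transcript, which allows levels to be compared between genes, the order in control knockdown ran NQO1 (63.5 ± 1.32 CPM per kb), TXNRD1 (61.6 ± 1.17), NFE2L2 (39.1 ± 0.842), KEAP1 (24.5 ± 1.37), GCLC (18.8 ± 0.528), HMOX1 (17.5 ± 0.598), GCLM (8.35 ± 0.324) and SLC7A11 (6.62 ± 0.319; SD, n = 5). The libraries of NQO1 and TXNRD1 overlapped, as did those of GCLC and HMOX1, and the other neighbours in the order did not. In DDX41 knockdown TXNRD1 came first at 185 ± 11.6 CPM per kb, ahead of NQO1 at 112 ± 4.01, and SLC7A11 at 16.8 ± 1.14 lay among GCLC and HMOX1 with overlapping libraries. GCLM came last at 12.6 ± 0.853 CPM per kb, although its level was higher than in control knockdown. Lengths are those of the canonical GENCODE transcript, and other transcripts in use would shift the order.

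**Figure D4:**
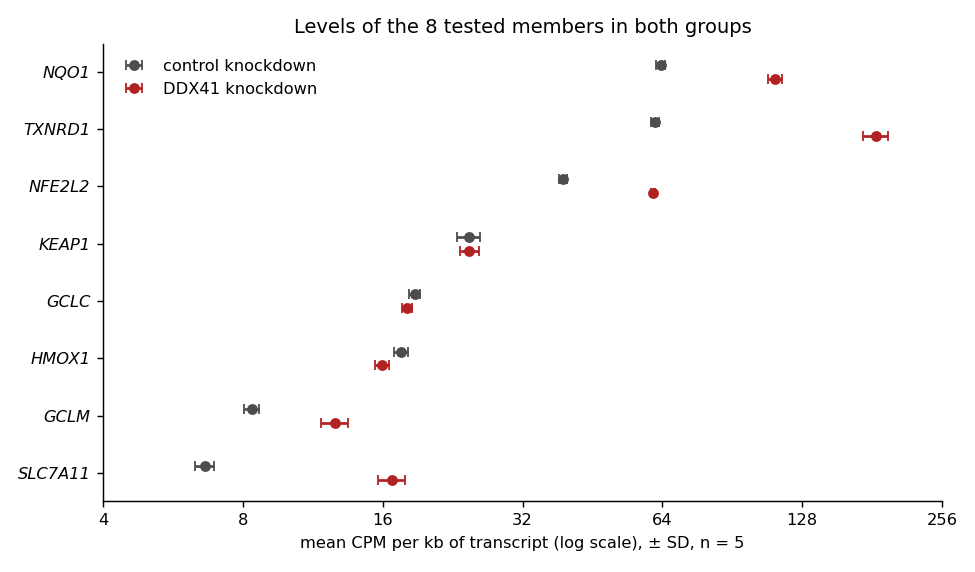
Mean level per kb of transcript (horizontal log axis, CPM per kb) of the 8 tested members in control knockdown (grey) and DDX41 knockdown (red), with SD over 5 libraries. NQO1 and TXNRD1 start together near 63.5 and 61.6, and TXNRD1 stands at 185 in DDX41 knockdown.

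No library was the highest or the lowest of its group for all members. Over the 8 tested members, DDX41 knockdown replicate 4 was the highest of its group for 5 members, control knockdown replicate 1 was the highest of its group for 5, and control knockdown replicate 3 was the lowest of its group for 4. Spread within groups was larger in DDX41 knockdown for SLC7A11, TXNRD1, GCLM and NQO1, with coefficients of variation of 6.80%, 6.27%, 6.75% and 3.58% against 4.81%, 1.90%, 3.88% and 2.07% in control knockdown. It was smaller for NFE2L2, KEAP1 and GCLC, at 1.15%, 4.74% and 2.49% against 2.15%, 5.57% and 2.82%, and near equal for HMOX1, at 3.49% and 3.42%. These differences in spread were not tested.

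The pattern over the 10 libraries, as log2 CPM centred on each gene's mean, was compared with all 11278 genes at a mean of 5 CPM or more. The nearest gene by root mean square difference was LZIC for NFE2L2 (0.0297), BZW2 for KEAP1 (0.0378), PTP4A2 for GCLC (0.0206), CD164 for GCLM (0.0355), MIR100HG for SLC7A11 (0.0547), NFE4 for TXNRD1 (0.0787), MYL12B for NQO1 (0.0273) and NKIRAS2 for HMOX1 (0.0265). The measure includes the difference between the groups, so a near gene has a like difference by construction. None of these nearest genes is on the pathway lists.

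Marker genes were read for the label of the cells. Of 9 osteoblast markers, SPARC and COL1A1 were abundant, with SPARC between 2749.6 and 3310.1 CPM, RUNX2, SPP1 and ALPL were present at lower levels, and BGLAP, IBSP, COL1A2 and SP7 were at or under 1 CPM in every library. SPARC and SPP1 rose (log2 fold changes 0.18 and 0.66), RUNX2 and ALPL fell (-0.40 and -0.70) and COL1A1 was not called. The summed level of the 9 was between 4621 and 4829 CPM in control knockdown and between 4795 and 5162 CPM in DDX41 knockdown. All 8 blood cell markers were at or under 1 CPM, with PTPRC the most abundant and sums of 0.286 to 0.809 CPM. The 6 endothelial markers summed to 7.51 to 7.78 CPM in control knockdown and 3.04 to 4.39 CPM in DDX41 knockdown, with VWF the most abundant and PECAM1, KDR and CLDN5 at or under 1 CPM. Of the 7 epithelial markers, KRT8 was the most abundant in control knockdown and KRT18 in DDX41 knockdown, and KRT19 and ESRP1 were at or under 1 CPM. They went different ways. KRT8 rose from 582 ± 32.7 to 802 ± 47.1 CPM (edgeR adjusted p = 4.47e-08) and KRT18 from 444 ± 17.7 to 874 ± 45.3 CPM (edgeR adjusted p = 3.78e-19), CLDN4 fell from 29.2 ± 2.30 to 13.3 ± 0.908 CPM (SD, n = 5; edgeR adjusted p = 1.39e-16), and EPCAM and CDH1 were not called. KRT8 and KRT18 make up most of the sums, 998 to 1124 CPM in control knockdown and 1577 to 1772 CPM in DDX41 knockdown, and share exon bases on opposite strands. The part of these markers in the results was not tested. In bulk RNA, fewer cells of a type and less RNA per cell cannot be told apart.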

How the data were processed

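RNA-seq of 10 U2OS libraries, 5 of control knockdown and 5 of DDX41 knockdown, was analysed from read counts per gene. The authors mapped single reads of stranded polyadenylated RNA libraries to hg38 with STAR 2.7 and counted them per gene with featureCounts 1.6, and the deposited values are whole counts without normalization. Whether the counting used strand, and what it did with reads that overlap several genes, is not given in the sources used here. Groups and replicate numbers came from the labels.

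Here low counts were filtered with filterByExpr, libraries were scaled by TMM, and the robust quasi-likelihood test of edgeR 4.0.16 (R 4.3.3) was applied to 16143 genes, with p-values adjusted over all of them after Benjamini-Hochberg and a threshold of 0.01. DESeq2 1.42.0 was an alternative. The procedure was tested on simulated data. Names, positions and canonical transcript lengths came from GENCODE release 44 by identifier without version. CPM used TMM library sizes. Promoters came from RefSeq on hg38.

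The members and lists were chosen with earlier results of these data known. Named genes were DDX41, the members, 14 family partners, and in each of 7 lists up to 2 largest rises and 2 largest falls among called genes at a mean of 5 CPM or more, the most abundant gene per kb, and the gene nearest in pattern to each member. Some genes that fit this rule are not reported here. Totals of 21807041 to 24896398 counts limit genes at low levels. Alternatives were other scalings, tests, filters and thresholds, a minimum size of change, each library left out and a replicate block.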

Additional observations from a re-analysis of the deposited data

Results flagged for a closer look

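In 118 groups of 5 libraries of the named genes, 5 held a library far from the others, meaning that its gap to the nearest library exceeded the Dixon limit of 0.71 of the group's range. Chance gives about 1 in 20 groups. GCLM stood at 43.58 CPM in control knockdown replicate 1, above the next value of 40.24. GSS stood at 63.93 CPM in DDX41 knockdown replicate 3, below 69.27, and CHAC1 at 6.167 CPM in DDX41 knockdown replicate 2, below 7.194. In control knockdown replicate 3, STEAP3 stood at 252.5 CPM, below 269, and SOD1 at 229.2 CPM, below 241.1.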

How the results depend on the processing

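For single named genes, 965 values under the alternatives stayed on the same side of the threshold, and the called ones among them kept their direction, while 21 lost the call. Of these, 9 concerned CUL3 and 12 HMOX1, a member whose place beside the threshold is only a description (log2 fold changes of -0.14 to -0.11 in those settings). CUL3 lost its call with total counts (log2 fold change 0.07), without a filter on low counts (0.09), without control knockdown replicates 1 (0.08), 2 (0.08), 4 (0.09) or 5 (0.08) and without DDX41 knockdown replicates 3 (0.08), 4 (0.07) or 5 (0.09). Leaving out a library leaves fewer samples. For the other settings the cause was not tested.

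Requiring an absolute log2 fold change over 0.5 as well left 1584 genes higher and 2534 lower, and by list, members included, 2 higher and 1 lower for NRF2 control, 6 and 4 for glutathione, 4 and 3 for thioredoxin and peroxiredoxin, 8 and 4 for quinone and aldehyde detoxification, 1 and 2 for NADPH supply, 2 and 5 for heme and iron, and 5 and 1 for superoxide and peroxide removal. The smaller counts follow from the stricter rule. For heme and iron and for NADPH supply it left more genes lower than higher, the reverse of their main counts. Without any 1 library, genes higher numbered 4648 to 4823 and genes lower 4968 to 5121, and the log2 fold change of DDX41 lay between -2.04 and -1.96.

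Same-numbered libraries did not deviate together (correlations of -0.0524 to 0.0446), so no pairing by number was seen. These correlations cannot show whether such libraries were handled together. With the replicate block 4790 genes were higher and 5097 lower, list counts moved by at most 1, DDX41 stood at -1.99, and no named gene other than HMOX1 lost its call.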
